A study of Homo sapiens and Mus musculus with 12 samples.

Results

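The genes described here are 9 human genes of the endoplasmic reticulum (ER) stress response: ERN2, ERN1, EIF2AK3, ATF6, CREB3L1, XBP1, ATF4, DDIT3 and HSPA5, together with mouse Ern2. They were listed by name, with earlier results of these data known, and a peak was assigned to a gene when any base of it lay within 50 kb of the gene's edges, which were given to whole kb in hg19 or, for mouse Ern2, in mm10. Distances from a gene edge can therefore be off by about 1 kb. Under that rule 5 of 2775 SPDEF peaks and 11 of 10670 GATA6 peaks lay near the 9 human genes, and 2 of 5719 mouse Spdef peaks lay near Ern2. Of the 9, 5 encode ER membrane proteins that sense or transmit stress, 3 encode transcription factors that act downstream of them, and HSPA5 is the only chaperone.

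The peaks come from CUT&RUN, in which an antibody directs a nuclease to chromatin and the released fragments are sequenced. HPAF-II is an established human pancreatic ductal adenocarcinoma (PDA) line, used here with HA-tagged SPDEF, and was profiled with an antibody to the HA tag in 3 libraries, to GATA6 in 3, to H3K4me3 in 1 and with control IgG in 1. FC1245 is a mouse PDA line of strain C57/Bl6 that carries Trp53LSLR172H/+ and Pdx1-Cre, used with HA-tagged mouse Spdef and profiled with the HA antibody in 3 libraries and with IgG in 1. Its mutant Trp53 allele is switched on by a Cre driven by the pancreatic Pdx1 promoter. All libraries, the IgG controls included, came from cells carrying the tagged factor, so cells without it are not described. SPDEF, GATA6 and mouse Spdef are each represented by 1 list of peak positions with no score and no replicate values, so no count below could be set against the spread between cultures, no test was made, and the depth behind the lists is unknown. Peaks of the H3K4me3 and IgG libraries were not analysed here. The deposited data measure where the factors were found and not how much of any gene was expressed.

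ER stress arises when unfolded proteins build up in the compartment where secreted proteins are folded. Membrane sensors then switch on a transcriptional programme, the unfolded protein response, that raises folding capacity or, when stress persists, leads to cell death. Cells that make mucus fold very large glycoproteins. Their ER holds IRE1-beta, the product of ERN2, beside the IRE1-alpha (ERN1) of most cells, and both are kinases with an RNase domain. IRE1-alpha splices XBP1 mRNA into the form that encodes an active transcription factor. EIF2AK3 encodes PERK, which phosphorylates eIF2-alpha and thereby favours translation of ATF4, an activator of DDIT3 (CHOP). ATF6 and CREB3L1 (OASIS) are held in the ER membrane and released as transcription factors by cleavage in the Golgi. HSPA5 encodes BiP, the main Hsp70 chaperone of the ER. SPDEF is an ETS-family factor of secretory epithelia, including goblet cells, and GATA6 is a zinc-finger factor of endoderm that marks the classical subtype of PDA.

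Promoter sequences of 3 genes are shown first, picked after their values were seen. EIF2AK3 is shown because SPDEF and GATA6 peaks lay beside its 5′ edge. The sequences of XBP1 and HSPA5 are shown because, among these genes, only theirs held an exact match to the ER stress response element. XBP1 and HSPA5, like ATF4, had no peak of either factor within 50 kb. The sequences are the 250 bases before a transcription start in RefSeq (GRCh38.p14), read 5′ to 3′ on the gene's strand. The peaks are in hg19, so these bases could not be placed under or beside a peak base by base. In the EIF2AK3 sequence (chr2:88627465-88627714, minus strand), capitals mark GGAA, the core of ETS-family sites, on either strand, where TTCC is the same core on the other strand. In those of XBP1 (chr22:28800570-28800819, minus strand) and HSPA5 (chr9:125241344-125241593, minus strand), capitals mark the ER stress response element, the letters CCAAT and CCACG separated by 9 bases. Only this exact spelling was searched for and marked.
EIF2AK3: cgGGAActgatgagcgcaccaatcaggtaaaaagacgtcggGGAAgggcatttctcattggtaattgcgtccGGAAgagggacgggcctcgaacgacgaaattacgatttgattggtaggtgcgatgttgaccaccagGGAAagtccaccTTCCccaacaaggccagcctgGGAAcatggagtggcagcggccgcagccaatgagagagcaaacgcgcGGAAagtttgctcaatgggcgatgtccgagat
XBP1: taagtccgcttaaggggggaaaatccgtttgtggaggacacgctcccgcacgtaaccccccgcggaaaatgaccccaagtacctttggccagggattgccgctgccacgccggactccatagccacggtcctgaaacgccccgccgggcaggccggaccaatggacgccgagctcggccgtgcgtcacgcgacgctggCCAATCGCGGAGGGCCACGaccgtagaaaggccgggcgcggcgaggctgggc
HSPA5: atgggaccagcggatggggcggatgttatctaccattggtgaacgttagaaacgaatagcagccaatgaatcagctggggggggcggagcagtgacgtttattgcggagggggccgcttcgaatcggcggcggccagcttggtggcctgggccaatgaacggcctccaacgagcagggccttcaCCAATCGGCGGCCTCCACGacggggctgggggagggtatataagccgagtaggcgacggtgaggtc

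The EIF2AK3 sequence held 7 GGAA cores on both strands together, and at least as many were found in 4.10% of the 35116 promoter entries of the same length, whose median was 3. At least 1 GGAA was present in 92.7% of entries, so its presence alone separates few genes. GGAA is a core of the ETS family as a whole and not of SPDEF in particular. GGAT, a core that SPDEF binds, was absent from the EIF2AK3 sequence and present in 70.7% of entries. GATAA, a form of the GATA site, was absent too and present in 20.4%. The same cores, left in lower case in the other printed sequences, also occurred at genes without a nearby peak: the HSPA5 sequence held 2 GGAT and 1 GATAA, and that of XBP1 held 2 GGAA and 2 GGAT. The entry of CREB3L1, which had peaks of both factors, held 6 GGAA, 2 GGAT and 1 GATAA. Whether the start of that entry is at the 5′ edge used for the peaks was not checked, so it may be another start of the gene. The ER stress response element, through which ATF6 and the spliced form of XBP1 act, was in 26 entries (0.0740%) in its exact spelling, among them the 2 printed here. Promoter entries existed for 8 of the 9 genes, and there was none for ERN2. XBP1, ATF4 and DDIT3 have more than 1 entry, 11 in all. The exact spelling was in 1 of the XBP1 entries and in none of those of ERN1, EIF2AK3, ATF6, CREB3L1, ATF4 and DDIT3. Near matches were not counted, so these genes may still carry the element in another spelling. Both DDIT3 entries hold CCAAT, 9 bases and CCACT, which differs from the exact spelling in its last letter. The HSPA5 sequence also holds CCAAT, 9 bases and CCAAC, left in lower case. A match of letters is a description of the sequence and not evidence of a bound site.

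**Figure D1:**
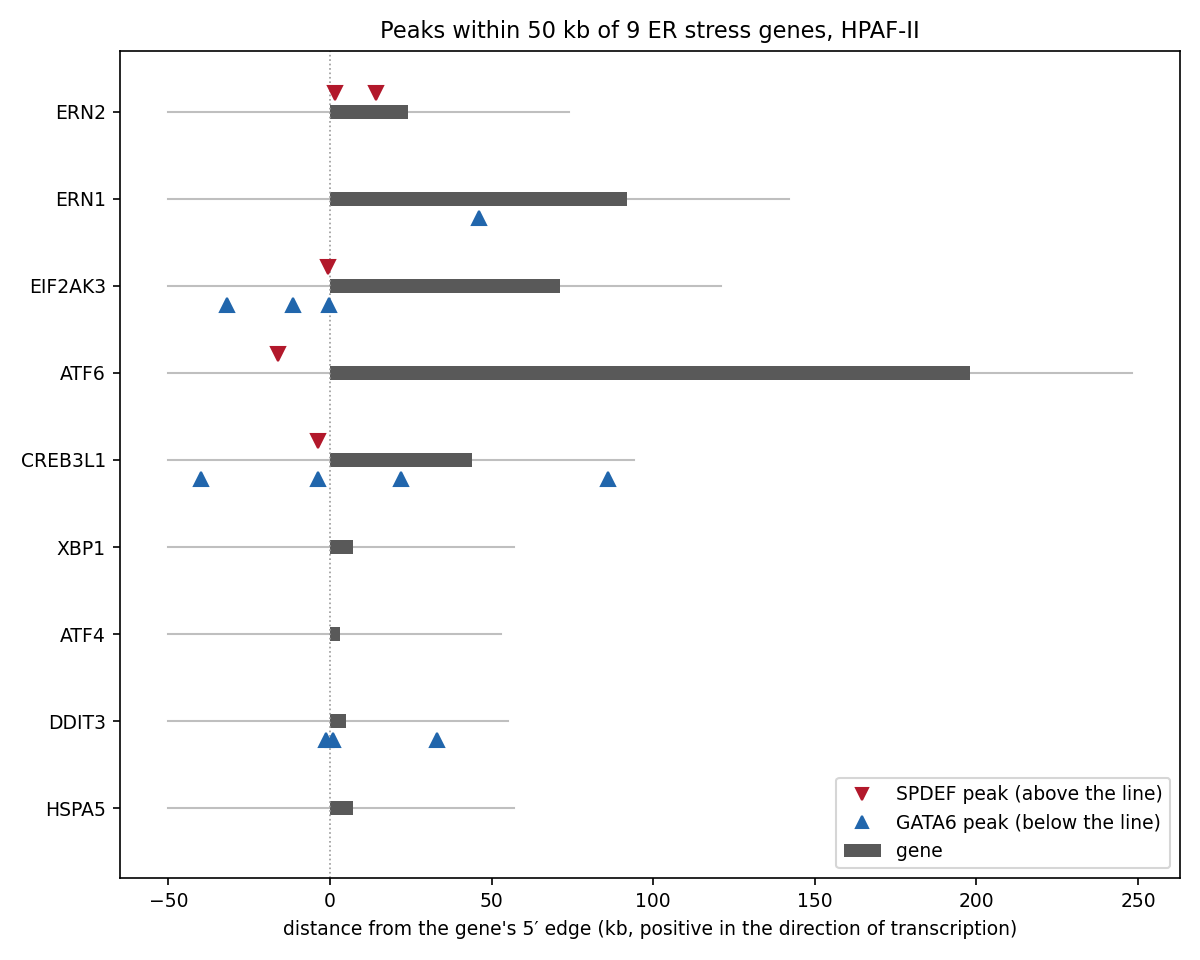
Positions of the SPDEF peaks (red, above each line) and GATA6 peaks (blue, below) within 50 kb of the 9 genes in HPAF-II, in kb from each gene's 5′ edge in the direction of transcription, with the gene as a grey bar. ERN2 has 2 SPDEF peaks and no GATA6 peak, EIF2AK3 and CREB3L1 have an SPDEF and a GATA6 peak at the same place, and XBP1, ATF4 and HSPA5 have none.

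SPDEF peaks lay near 4 of the 9 genes, ERN2, EIF2AK3, ATF6 and CREB3L1. Among adjacent windows of the same lengths laid over chromosomes 1 to 22 and X, 8.24% held an SPDEF peak. GATA6 peaks also lay near 4 of the 9, ERN1, EIF2AK3, CREB3L1 and DDIT3, against 24.6% of such windows. Both factors had peaks near EIF2AK3 and CREB3L1, SPDEF alone near ERN2 and ATF6, GATA6 alone near ERN1 and DDIT3, and neither near XBP1, ATF4 and HSPA5. The windows cover 1.351 Mb and held 3.70 SPDEF peaks per Mb (exact 95% Poisson interval 1.20 to 8.64), against 0.912 per Mb over the whole list. For GATA6 there were 8.14 per Mb (4.06 to 14.6), against 3.51 over the whole list. The intervals cover counting error only. Without ERN2 the SPDEF density was 2.44 per Mb (0.504 to 7.15) and without CREB3L1 3.31 (0.903 to 8.49), and these intervals include the value of the whole list. Likewise the GATA6 interval included the value of its whole list without EIF2AK3 (6.78 per Mb, 2.93 to 13.4), CREB3L1 (5.80, 2.33 to 11.9) or DDIT3 (6.42, 2.77 to 12.7). The genes were chosen with earlier results of these data known, so no excess over the genome is read from these values. The genome windows include stretches without genes, so their shares are not shares of genes.

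By role, 4 of the 5 membrane sensors and transducers had an SPDEF peak near them, and 0 of the other 4 genes. Their windows differ in length, from 124 to 298 kb for those 5 and from 103 to 107 kb for the other 4, and 10.1% and 6.78% of genome windows of those lengths held an SPDEF peak. For GATA6, 3 of the 5 membrane proteins and 1 of the other 4 genes had a peak, against 29.0% and 21.1% of genome windows. The grouping by role was not among the planned results. With 9 genes and 1 list per factor these counts describe the loci, and no difference between the roles was tested.

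**Figure D2:**
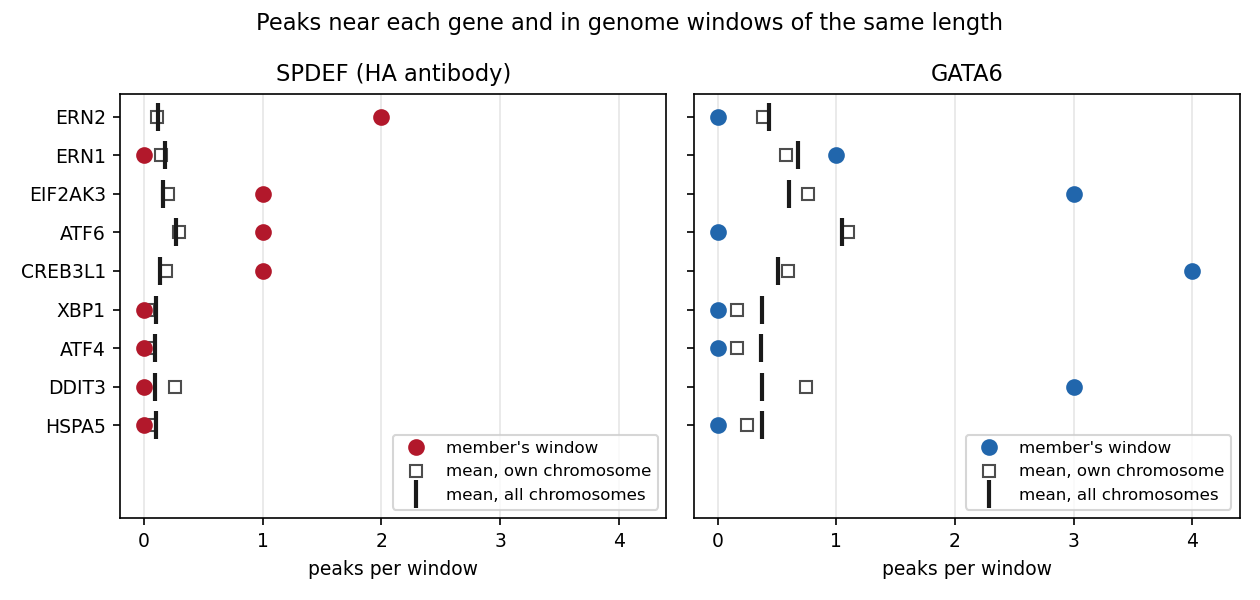
Number of peaks in each gene's window (filled circles) beside the mean per genome window of the same length over all chromosomes (bar) and over the gene's own chromosome (open square), for SPDEF (left) and GATA6 (right). ERN2 has the highest SPDEF count, 2 against a mean of 0.114, and CREB3L1 the highest GATA6 count, 4 against 0.508.

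ERN2 was the gene with the most SPDEF peaks. Both lay inside the gene (chromosome 16, 23701 to 23725 kb in hg19). The peak nearer the 5′ end spanned 23723155 to 23723899 and was 745 bp wide, wider than or as wide as 93.6% of the SPDEF list. Its edges lay 1.10 and 1.85 kb into the gene from the 5′ edge, taking the gene as transcribed from the minus strand, which is background knowledge and not from the files. The other spanned 23710774 to 23710945, 172 bp, and was among the narrower peaks, since 2405 of the 2775 were wider. It lay 14.1 to 14.2 kb into the gene. The peaks were 12.2 kb apart, and 35.0% of all SPDEF peaks had another at that distance or closer. Windows of the length of ERN2's held 1 or more SPDEF peaks in 7.83% of cases and 2 or more in 2.12%, and on chromosome 16 the first share was 8.24%.

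No GATA6 peak lay near ERN2. The nearest was 1104 kb beyond the 3′ edge, and 0 GATA6 peaks lay within 1 Mb of the gene, as in 15.0% of genome windows of that length, whose median was 5. The SPDEF peak nearer to it was 1114 kb away from it. Of all SPDEF peaks, 11 of 2775 (0.396%) were at least that far from a GATA6 peak, the ERN2 pair among them, and 9.41% had none within 100 kb. No further SPDEF peak lay within 1 Mb either, the next being 1016 kb upstream. The pair is close to the mean of 1.84 SPDEF peaks in genome windows of that length, whose median was 1 and of which 45.9% held none. XBP1, HSPA5 and ATF4 had 0 SPDEF peaks within 1 Mb.

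Mouse Ern2 (chromosome 7, 122169 to 122187 kb in mm10) had 2 mouse Spdef peaks near it in FC1245 cells, against 16.0% of mm10 windows of that length holding at least 1. In 5.67% of those windows there were 2 or more. The peak inside the gene spanned 122184516 to 122185234, 719 bp, wider than or as wide as 74.5% of the mouse list. It lay 1.77 to 2.49 kb from the 5′ edge, again taking the minus strand from background knowledge. The other spanned 122133098 to 122133439, 342 bp, and lay 35.6 kb beyond the 3′ edge. The values of the peak nearest the 5′ end can be set side by side: 745 bp at 1.10 to 1.85 kb in human ERN2, and 719 bp at 1.77 to 2.49 kb in mouse Ern2. Species, cell line and list differ together, and whether the 2 peaks cover related sequence was not tested. The libraries of the mouse line were made with the HA antibody and IgG alone, so GATA6 sites in it are not described.

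**Figure D3:**
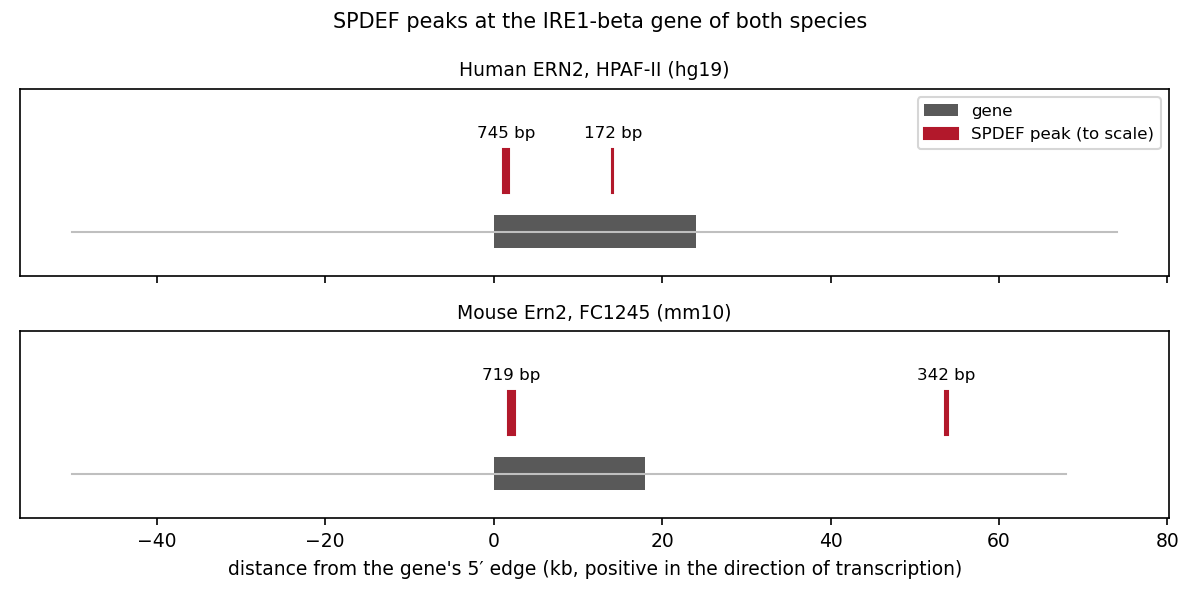
SPDEF peaks (red, drawn to scale, with widths in bp) at human ERN2 in HPAF-II (above) and mouse Ern2 in FC1245 (below), in kb from the 5′ edge in the direction of transcription, with the gene as a grey bar. A peak inside each gene, 745 bp in human and 719 bp in mouse, lies within 2.49 kb of the 5′ edge.

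ERN1, the IRE1-alpha gene (chromosome 17, 62116 to 62208 kb), had a GATA6 peak and no SPDEF peak near it. The GATA6 peak, 62161788 to 62162133, was 346 bp wide, the median of the list, and lay 45.9 to 46.2 kb into the gene near its middle. Windows of that length held a GATA6 peak in 31.9% of cases. The nearest SPDEF peak was 495 kb upstream. The next GATA6 peak, 63.9 kb beyond the 3′ edge, fell outside the limit of 50 kb.

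EIF2AK3, the PERK gene (chromosome 2, 88856 to 88927 kb), had peaks of both factors at its 5′ edge. The SPDEF peak spanned 88927409 to 88927642, 234 bp, which is narrower than the list's median of 268 bp. It lay 0.408 to 0.642 kb upstream of the edge and wholly within a GATA6 peak of 698 bp at 88927000 to 88927697. The promoter sequence printed above, with its 7 GGAA cores, belongs to this gene. Further GATA6 peaks of 591 bp and 276 bp lay 11.1 kb and 31.8 kb upstream, on the side where the next protein-coding gene in the GRCh38.p14 table is RPIA. No SPDEF peak overlapped them. Windows of that length held an SPDEF peak in 10.3% of cases and 3 or more GATA6 peaks in 7.46%. On chromosome 2 those shares were 12.8% and 9.35%. Within 1 Mb of the gene there were 15 SPDEF peaks, against a mean of 1.88 in genome windows of that length. Apart from the 1 at the 5′ edge, the nearest of these lay 731 kb beyond the 3′ edge, so the rest are remote from the gene. GATA6 peaks within 1 Mb numbered 8, against a mean of 7.30. DDIT3 had 14 SPDEF peaks within 1 Mb, against a mean of 1.82.

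CREB3L1, the OASIS gene (chromosome 11, 46299 to 46343 kb), had 1 SPDEF and 4 GATA6 peaks. The SPDEF peak, 46295265 to 46295558, was 294 bp wide and lay 3.44 to 3.74 kb upstream of the 5′ edge. It too lay wholly within a GATA6 peak, of 1597 bp at 46294448 to 46296044, and 179 of the 10670 GATA6 peaks were wider than that one. The other GATA6 peaks lay 39.8 kb upstream (119 bp), 21.8 kb into the gene (231 bp) and 41.9 kb beyond the 3′ edge (350 bp), towards DGKZ. Windows of this length held 4 or more GATA6 peaks in 2.98% of cases and at least 1 SPDEF peak in 8.88%. On chromosome 11 those shares were 4.06% and 12.6%.

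ATF6 (chromosome 1, 161736 to 161934 kb) is the longest of the 9 genes, with a window of 298 kb. Its 1 SPDEF peak, 161719624 to 161719999, was 376 bp wide and lay 16.0 kb upstream of the 5′ edge. DUSP12 is the next protein-coding gene on that side in the GRCh38.p14 table, and whether the peak is nearer to DUSP12 or to ATF6 could not be told from hg19 edges of ATF6 alone. An SPDEF peak was present in 16.1% of genome windows of this length. No GATA6 peak was within 50 kb, against 41.4% of windows with at least 1, and the nearest lay 111 kb beyond the 3′ edge.

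DDIT3, the CHOP gene (chromosome 12, 57910 to 57915 kb), had 3 GATA6 peaks and no SPDEF peak. The first lay inside the gene at 57913904 to 57914253, 350 bp, 0.747 to 1.10 kb from the 5′ edge. The others were 328 bp at 1.25 kb upstream, on the side of MBD6, and 308 bp at 27.9 kb beyond the 3′ edge, on the side of MARS1. Chromosome 12 is rich in peaks of both factors. A GATA6 peak was present in 35.4% of chromosome 12 windows of that length, against 21.0% over all chromosomes, and an SPDEF peak in 15.9% against 6.70%. At least 3 GATA6 peaks were present in 8.71% of chromosome 12 windows and 3.80% over all chromosomes. The nearest SPDEF peak to DDIT3 was 224 kb upstream.

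XBP1, ATF4 and HSPA5 had no peak of either factor within 50 kb. XBP1 (chromosome 22, 29190 to 29197 kb) missed the limit narrowly, with a GATA6 peak of 267 bp 51.6 kb beyond its 3′ edge. CREB3L1's peak at 41.9 kb was the farthest inside the limit. ATF4 (chromosome 22, 39916 to 39919 kb) was 595 kb from the nearest GATA6 peak and 1129 kb from the nearest SPDEF peak. HSPA5 (chromosome 9, 127997 to 128004 kb) was 372 kb from the nearest GATA6 peak. Its nearest SPDEF peak was 2765 kb away and only 9 bp wide. The nearest SPDEF peak to XBP1 was 1395 kb away. A window of their lengths is usually empty, with an SPDEF peak in 6.62% to 6.90% of cases and a GATA6 peak in 20.7% to 21.4%. On chromosome 22 those shares were 3.21% to 3.34% and 12.0% to 12.7%, and on chromosome 9 they were 3.18% and 15.7%. Both XBP1 and HSPA5 carry the ER stress response element in the promoters printed above.

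Of the 5 SPDEF peaks near the 9 genes, 2 overlapped a GATA6 peak by at least 1 bp (40.0%, exact Clopper-Pearson 95% interval 5.27 to 85.3), against 64.7% of the whole SPDEF list. Of the 11 GATA6 peaks near them, 2 overlapped an SPDEF peak (18.2%, 2.28 to 51.8), against 16.1% of the whole GATA6 list. With so few peaks the intervals include the shares of the whole lists. The 3 SPDEF peaks without GATA6 were those at ERN2 and ATF6, and their distances to the nearest GATA6 peak were 1126, 1114 and 325 kb. In the whole list 9.41% of SPDEF peaks were over 100 kb from a GATA6 peak.

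The peaks near these genes were narrow at some loci and wide at others, relative to their lists. The 5 SPDEF peaks ran from 172 to 745 bp with a median of 294 bp, against 268 bp over the list. The 11 GATA6 peaks ran from 119 to 1597 bp with a median of 346 bp, the same as over the list. The widest GATA6 peak was that upstream of CREB3L1 and the widest SPDEF peak that at the 5′ end of ERN2. Width is not a measure of binding strength.

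**Figure D4:**
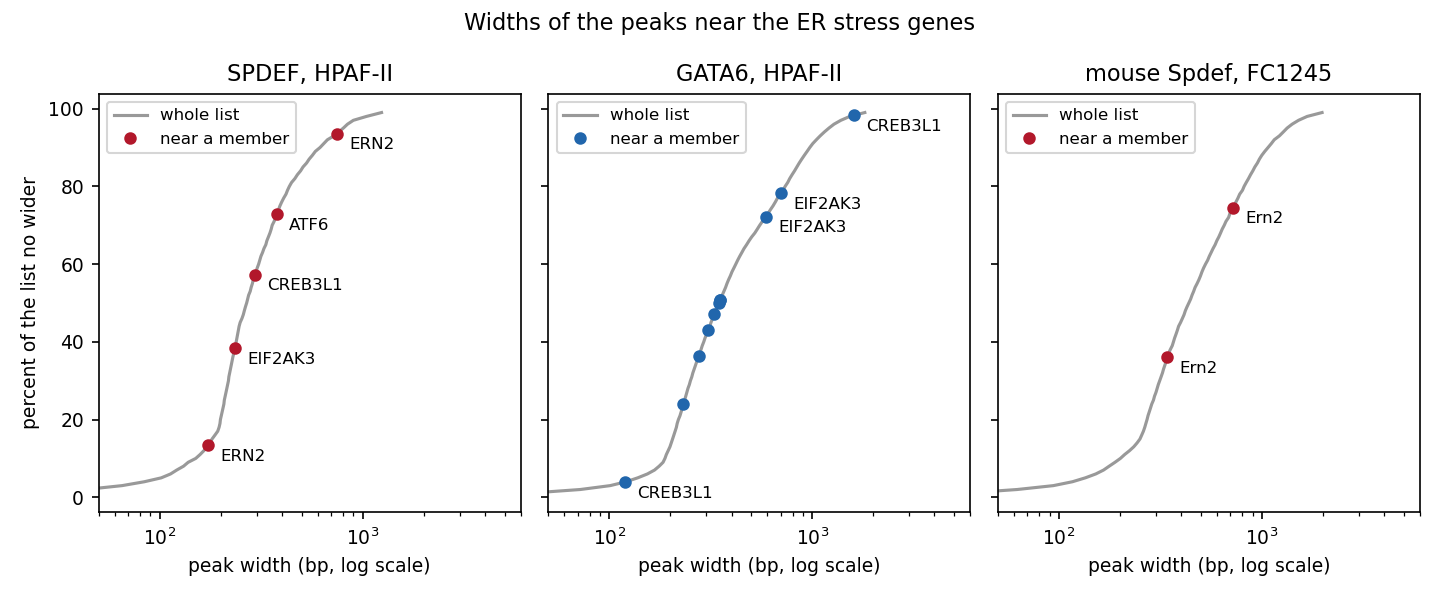
Width of each peak near the ER stress genes (points) on the cumulative distribution of its whole list (grey line), with width in bp on a log axis and the percent of the list no wider on the vertical axis. The ERN2 peaks lie at 13.3% and 93.6% of the SPDEF list, the CREB3L1 peaks at 3.92% to 98.3% of the GATA6 list, and the Ern2 peaks at 36.1% and 74.5% of the mouse list.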

How the data were processed

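Peaks of 9 human genes and mouse Ern2 were read from 3 deposited lists of peak positions, which hold no score, height or p-value. Per the submitters' processing notes, builds hg19 and mm10 and the tools MACS2 2.2.7.1, Bowtie2 2.4.4, deepTools and SAMtools 1.14 were used. The control, the threshold and whether the 3 libraries of a target were pooled are not given in the sources used here. Each list was tied to a target by its name, and positions are printed counting from 1. Part of the mouse line's genotype is not reported here.

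Gene edges came to whole kb with the definition of the genes. Lengths of the 9 genes in RefSeq GRCh38.p14 differed from them by at most 1.09 kb. Since its build differs, that table served for this check of lengths and for neighbours' names, and none of its coordinates were joined to peaks. The strand came from RefSeq promoter entries, and for ERN2 and Ern2 from background knowledge. All 9 genes and each of their peaks are named. Other genes of the pathway were listed for use with an hg19 annotation and are not analysed here.

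Background shares are those of adjacent windows of each gene's length plus 50 kb on either side, on autosomes and X, with chromosome lengths from GenomeInfoDb 1.38.1. Counts, overlaps (1 bp) and exact 95% intervals were computed with scipy 1.17.1 and numpy 2.4.6 in Python 3.11.15, and figures drawn with matplotlib 3.10.9. The counting was tested on simulated data. The genes and lists were chosen with earlier results of these data known. Alternatives were limits of 10, 25 and 100 kb, the wider 50% of each list, peaks under 100 bp left out, midpoints, stricter overlap, genes left out, other backgrounds and gene edges widened by 1 kb, the last added after seeing the data.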

Additional observations from a re-analysis of the deposited data

How the results depend on the processing

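No paired analysis was possible because the lists, 1 per target, carry no replicate values, and no replicate could be left out. Of 63 alternative values, 54 moved by no more than 1.5 times or stayed within the interval, and 9 moved more. The GATA6 peaks near the 9 genes numbered 6 within 10 kb and 7 within 25 kb, against 11 within 50 kb, and the mouse Ern2 count was 1 within 10 kb and 1 within 25 kb, smaller windows holding fewer peaks by construction. With the wider 50% of each list there were 3 SPDEF peaks, 6 GATA6 peaks, 1 overlapping SPDEF peak and 1 mouse peak. With 50% of both peaks covered, 0 of those 5 SPDEF peaks counted as overlapping, since those at EIF2AK3 and CREB3L1 lie in wider GATA6 peaks. The genes with an SPDEF peak numbered 3 to 4 and those with a GATA6 peak 4 to 5 under every limit on distance, width and midpoint run. Unknown depth limits all counts, and a gene without a listed peak may still be bound below the authors' threshold.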
